A study of Mus musculus with 8 samples.

Results

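The genes described here are 50 genes of adult skeletal muscle, measured in 8 mouse mammary tumors. They were chosen by name from the known contents of muscle fibers and their stem cells, with earlier results of these data known. Their counts beside all genes are therefore a description and not an independent check. Each of the 50 genes was read through the probe set that lists this gene alone and has the highest mean over the tumors. All 50 were measured, of 19937 genes with such a probe set. All 50 reached the study's expression limit of a mean log2 signal of 4.0, and so did all 19937 genes. Passing this limit therefore does not show that a gene is expressed. The tumors grew from 4T1 cells, a mammary carcinoma line placed orthotopically into BALB/c mice, for 18 days. In the preirradiated group (4 tumors) the fourth mammary gland was treated with 20 Gy of X-rays, given once and locally, ahead of the injection of the cells, and in the nonirradiated group (4 tumors) the gland was left untreated. Both groups share the cell line, the mouse strain and the growth time. Sex and age of the mice are not given in the sources used here, nor is it stated whether each tumor came from its own mouse. A p-value here speaks only of the spread among these 8 tumors, which may be technical in part. Each tumor was hybridized to 1 Affymetrix Mouse Gene 1.0 ST array.

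Skeletal muscle fibers are fused, multinucleate cells filled with sarcomeres, the repeating units in which myosin thick filaments pull on actin thin filaments. Fast and slow fibers carry different isoforms of myosin, troponin and the calcium pump, and inside a fiber a voltage sensor and a calcium release channel turn the action potential into calcium release. Satellite cells under the fiber's sheath express Pax7, and when they repair a fiber they switch on the myogenic factors Myod1 and Myog. Mouse mammary glands lie under the skin, and thin skeletal muscle layers run beneath the skin and along the body wall.

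Values are log2 signals after robust multi-array averaging. The distance of a tumor's signal from the mean of the 4 nonirradiated tumors, on the log2 scale and for the same probe set, is called its elevation. An elevation of 1.0 is a signal higher by a factor of 2.0. The labelled tissue is a mammary epithelial carcinoma, and the epithelial adhesion genes Epcam (9.07 to 10.16) and Cdh1 (9.35 to 10.27) were clearly measured in all 8 tumors. Because the RNA came from whole tissue, a larger number of muscle fibers and more muscle RNA per cell cannot be told apart. An array gives 1 value per tumor, and the number of tumors limits the precision.

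The muscle genes were high in preirradiated tumors 1 and 3, and had medians close to the nonirradiated mean in the other 6 tumors. Tumor 3 had the highest signal of all 8 tumors in 49 of 50 genes, against 7.72% of all measured genes, with Pax7 as the exception. Tumor 3 ranked first and tumor 1 second in 47 genes, against 2.26% of all genes. The median elevation was 2.6 in preirradiated tumor 3 and 0.93 in tumor 1, but -0.04 in tumor 2 and 0.03 in tumor 4. For all genes the median elevation lay between -0.016 and 0.013 in these tumors. At least 1.0 above every nonirradiated tumor were 38 of 50 muscle genes in preirradiated tumor 3 (0.482% of all genes) and 20 in tumor 1 (0.246%). There were 0 in tumor 2 (0.015%) and 0 in tumor 4 (0.0251%). The 20 genes of tumor 1 were all among the 38 of tumor 3, and 12 muscle genes were in neither set. By any margin, 48 of the 50 lay above every nonirradiated tumor in preirradiated tumor 1 (19.9% of all genes), 3 in tumor 2 (19.4%), 49 in tumor 3 (14.8%) and 12 in tumor 4 (26.7%).

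**Figure D1:**
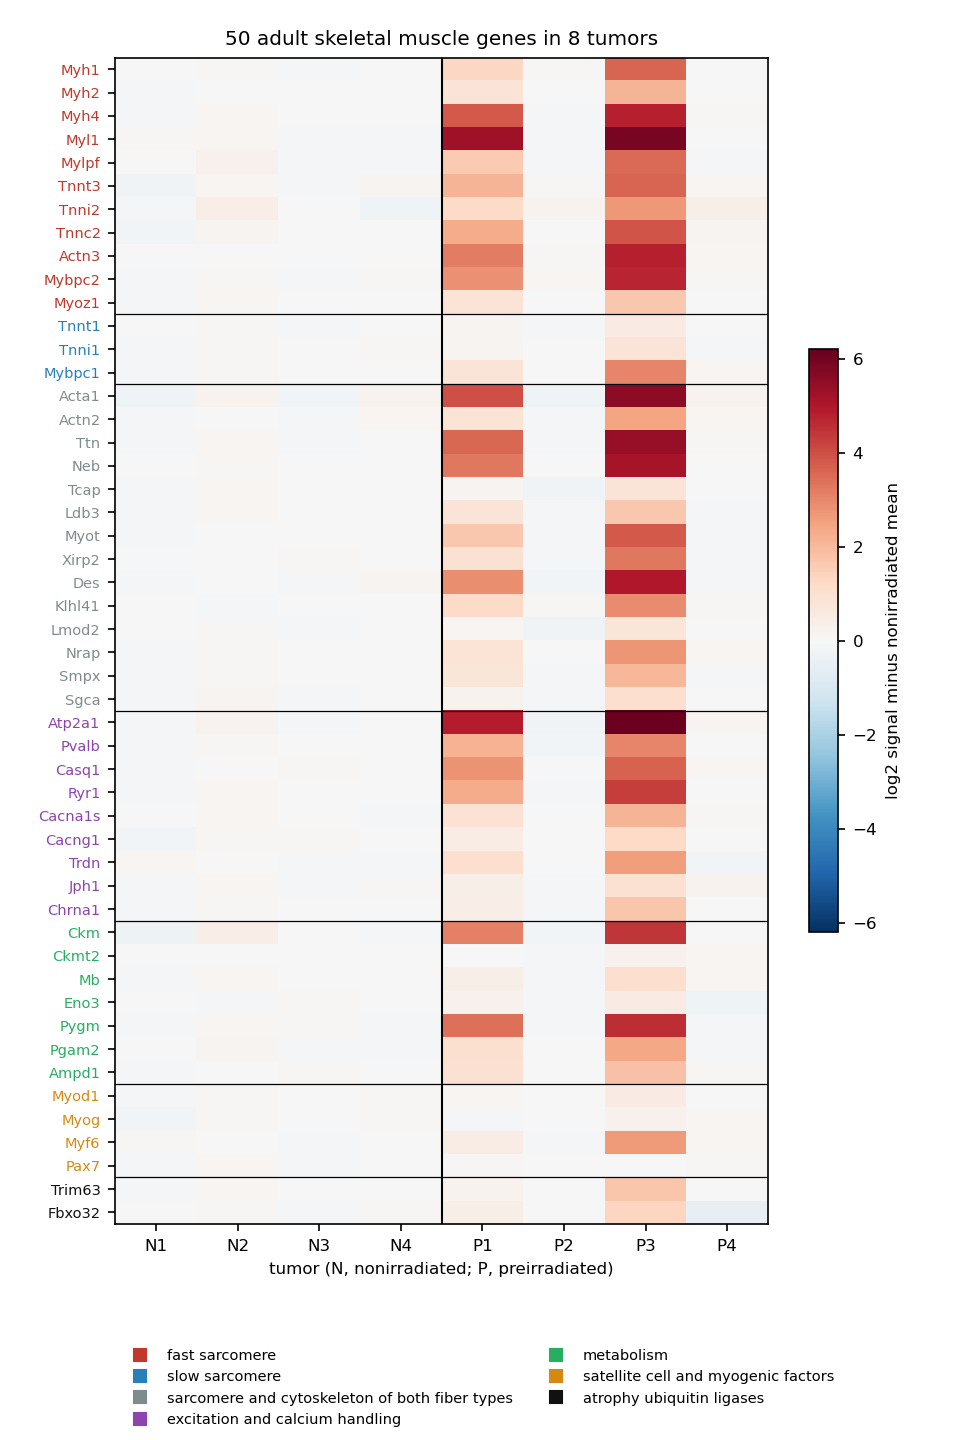
Log2 signal minus the nonirradiated mean (color) for the 50 muscle genes (rows, ordered and colored by role) in the 4 nonirradiated (N1 to N4) and 4 preirradiated (P1 to P4) tumors. The columns of P1 and P3 stand out, P1 with a median of 0.93 and P3 with one of 2.6, while P2 and P4 have medians of -0.04 and 0.03.

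The comparison of the groups asks how tumor tissue in an irradiated bed differs from tumor tissue in an untreated bed. All 50 muscle genes had a higher mean in the preirradiated group (47.4% of all tested genes did), with a median log2 difference of 0.85 against -0.004 over all genes. The difference was at least 1.0 for 22 of 50 (0.166% of all genes). By limma, 0 of 50 passed a Benjamini-Hochberg adjusted p of 0.05 over 34738 probe sets (0.0% of all genes), and the smallest adjusted p of a member was 0.851. An unadjusted p under 0.05 was reached by 0 of 50 (2.39% of all genes were higher at this limit and 3.27% lower). The filter stated by the study (p up to 0.05 without adjustment, log2 change from 0.4 upward) was also passed by 0 of 50 (0.346% of all genes higher, 0.14% lower). The SD within the preirradiated group was 2.52 for Myh4 and 3.22 for Atp2a1, while the nonirradiated SD of the 50 genes ran from 0.031 to 0.302 with a median of 0.087.

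The outcome of the filter depended on which preirradiated tumors entered the fit. Without preirradiated tumor 2 the filter was passed by 25 muscle genes (0.717% of all genes, higher), and without tumor 4 by 21 (0.787%). With array weights 25 passed (0.752%). The weights of preirradiated tumors 1 to 4 were 1.182, 0.843, 1.502 and 0.57, and that of tumor 4 was the lowest of the 8 arrays. Without tumors 1 and 3 together 0 passed (0.191%), 20 of 50 were higher (51.2% of all genes) and the median difference was -0.02. Without tumor 3 alone 1 passed (Tnni2; 0.311% of all genes, higher) and the median difference was 0.31. The groups did not overlap for 2 genes, Actn3 and Klhl41, both higher (1.7% of all genes; 1.95% were lower without overlap).

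Among the fast-fiber sarcomere genes, all 11 lay above every nonirradiated tumor in preirradiated tumor 1 (19.9% of all genes) and in tumor 3 (14.8%). Their median elevations were 2.13 and 3.63. Myh4 (probe set 10377117), the myosin heavy chain of the fastest IIB fibers, had signals of 5.78, 6.05, 5.90 and 5.95 in nonirradiated tumors 1 to 4. In preirradiated tumors 1 to 4 its signals were 9.72, 5.84, 10.72 and 5.99. Tumors 1 and 3 were thus 13.9-fold and 27.9-fold above the nonirradiated mean, and tumors 2 and 4 lay inside the nonirradiated range. The group means were 8.07 ± 2.52 and 5.92 ± 0.11 (SD, n = 4 each), a difference of 2.15 (SE 1.08, limma adjusted p = 0.874). Myh1, the heavy chain of IIX fibers, read 5.15, 5.21, 5.07 and 5.19 in nonirradiated tumors and 6.41, 5.20, 8.75 and 5.12 in preirradiated tumors. Its elevation was 1.26 in tumor 1 and 3.60 in tumor 3. Myh2, the heavy chain of IIA fibers, reached 5.73 in tumor 1 and 7.07 in tumor 3 from a nonirradiated mean of 4.94. These 3 myosins are close paralogs, so some of one gene's transcripts may bind another's probes.

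Myl1, a fast essential myosin light chain, had the largest elevation of the 50 genes in tumor 1. Its signals were 4.92, 4.99, 4.76 and 4.76 in nonirradiated tumors and 10.11, 4.78, 10.74 and 4.88 in preirradiated tumors. That is 38.2-fold over the nonirradiated mean in tumor 1 and 59.0-fold in tumor 3. The regulatory light chain Mylpf had elevations of 1.6 and 3.5. The fast troponins, which make the thin filament sensitive to calcium, followed the same tumors: Tnnt3 had elevations of 2.13 and 3.63, Tnnc2 of 2.28 and 3.90, and Tnni2 of 1.19 and 2.67. Tnni2 had the smallest p of the 50 genes, with a difference of 1.12 (SE 0.49, limma unadjusted p = 0.0531, adjusted p = 0.851). Its nonirradiated SD, 0.28, was the second largest of the 50 genes, and its signal of 8.41 and 8.55 in preirradiated tumors 2 and 4 lay inside the nonirradiated range of 7.90 to 8.57. Actn3, the Z-disc actinin of fast fibers, read 5.83 to 5.91 in nonirradiated tumors and 9.02, 5.95, 10.67 and 5.97 in preirradiated tumors, so tumors 2 and 4 cleared the nonirradiated range by less than 0.1. The fast myosin-binding protein Mybpc2 had elevations of 2.81 and 4.73, and Myoz1, a calcineurin-binding Z-disc protein, of 0.86 and 1.66.

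The start regions of 4 of the 50 genes are shown because their signals stood at very different heights above the nonirradiated tumors, from Myog to Acta1, and because Myh4 and Myh1 are neighbors in a myosin cluster with different ratios between the tumors. Each window runs 5′ to 3′ on the gene's strand from 250 bases before to 50 bases after the annotated start (RefSeq, GRCm38.p6). Capitals mark matches on either strand to the E-box CANNTG, the MEF2 site, the CArG box of serum response factor, or TATAAA. The windows are Myh4 at chr11:67237562-67237861 (plus strand), Myh1 at chr11:67199852-67200151 (plus strand), Acta1 at chr8:123894726-123895025 (minus strand) and Myog at chr1:134289754-134290053 (plus strand).
Myh4: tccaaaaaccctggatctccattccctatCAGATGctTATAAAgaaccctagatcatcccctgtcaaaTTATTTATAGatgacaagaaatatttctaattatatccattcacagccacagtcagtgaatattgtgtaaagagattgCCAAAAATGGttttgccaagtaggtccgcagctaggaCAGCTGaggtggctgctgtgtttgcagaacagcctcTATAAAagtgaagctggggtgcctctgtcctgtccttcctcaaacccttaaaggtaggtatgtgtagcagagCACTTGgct
Myh1: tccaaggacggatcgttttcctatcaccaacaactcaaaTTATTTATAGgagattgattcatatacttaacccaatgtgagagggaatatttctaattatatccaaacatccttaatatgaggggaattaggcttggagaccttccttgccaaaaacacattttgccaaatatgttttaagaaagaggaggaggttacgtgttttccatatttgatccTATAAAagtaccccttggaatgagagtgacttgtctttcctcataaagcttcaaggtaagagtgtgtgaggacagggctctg
Acta1: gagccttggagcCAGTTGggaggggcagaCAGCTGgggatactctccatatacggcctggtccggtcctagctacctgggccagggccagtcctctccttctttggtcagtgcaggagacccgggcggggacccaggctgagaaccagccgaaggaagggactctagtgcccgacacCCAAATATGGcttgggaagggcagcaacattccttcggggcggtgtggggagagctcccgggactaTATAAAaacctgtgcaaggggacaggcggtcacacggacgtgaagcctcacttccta
Myog: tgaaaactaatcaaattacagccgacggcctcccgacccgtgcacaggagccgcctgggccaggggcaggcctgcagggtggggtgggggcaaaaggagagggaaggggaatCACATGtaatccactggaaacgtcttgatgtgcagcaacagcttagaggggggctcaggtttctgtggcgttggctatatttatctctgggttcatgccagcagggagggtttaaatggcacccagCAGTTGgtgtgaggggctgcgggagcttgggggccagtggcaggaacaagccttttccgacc
Myh4 and Myh1 hold the same MEF2 match, TTATTTATAG, at position -182 and -211 from the start, and in both it overlaps a TATAAA match on the other strand. Myh4 also holds 3 E-boxes and a CArG box, and Myh1 holds 0 of either. Acta1 holds a CArG box, CCAAATATGG, at position -73, and 2 E-boxes. Myog holds 2 E-boxes.

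Windows were given for 36 of the 50 genes. An E-box was present in 30 of these 36 and in 71.5% of 15562 measured genes with a window, and in 72.3% of all 32851 windows. A MEF2 match was present in 7 of 36 (Klhl41, Myh1, Myh4, Pgam2, Pvalb, Ttn and Xirp2), against 3.0% of measured genes and 3.2% of all windows. A CArG box was present in 3 of 36 (Acta1, Ldb3 and Myh4), against 1.6% of both. TATAAA was present in 7 of 36, against 13.6% of both. A match to these letters describes the window and does not show a bound site.

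Slow-fiber sarcomere genes stood much closer to the nonirradiated tumors, with median elevations of 0.18 in preirradiated tumor 1 and 0.78 in tumor 3 over 3 genes. Tnni1, the slow troponin I, read 5.76, 5.95, 5.94 and 5.95 in nonirradiated tumors and 6.08, 5.89, 6.68 and 5.79 in preirradiated tumors. Tumor 3 was 1.71-fold and tumor 1 was 1.14-fold above the nonirradiated mean. Tnnt1, the slow troponin T, had elevations of 0.17 and 0.50. Mybpc1, the slow form of myosin-binding protein C, which fast fibers also contain, stood higher. Its signals were 5.49 to 5.61 in nonirradiated tumors and 6.37, 5.59, 8.61 and 5.66 in preirradiated tumors, so its elevation of 3.04 in tumor 3 was far above its 0.81 in tumor 1. A further list of 9 slow-fiber genes that the heart also uses had median elevations of 0.17 in tumor 1 and 1.02 in tumor 3. In that list, 4 of 9 were at least 1.0 above every nonirradiated tumor in tumor 3 (0.482% of all genes). In tumor 1 it was 0 of 9 (0.246%). Myh7, the slow myosin heavy chain, read 5.89 to 6.07 in nonirradiated tumors, 6.21 in preirradiated tumor 1 and 7.12 in tumor 3. Ankrd2, a titin-associated protein of slow fibers, reached 7.99 in tumor 3 and 6.4 in tumor 1 from 6.03 to 6.22.

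**Figure D2:**
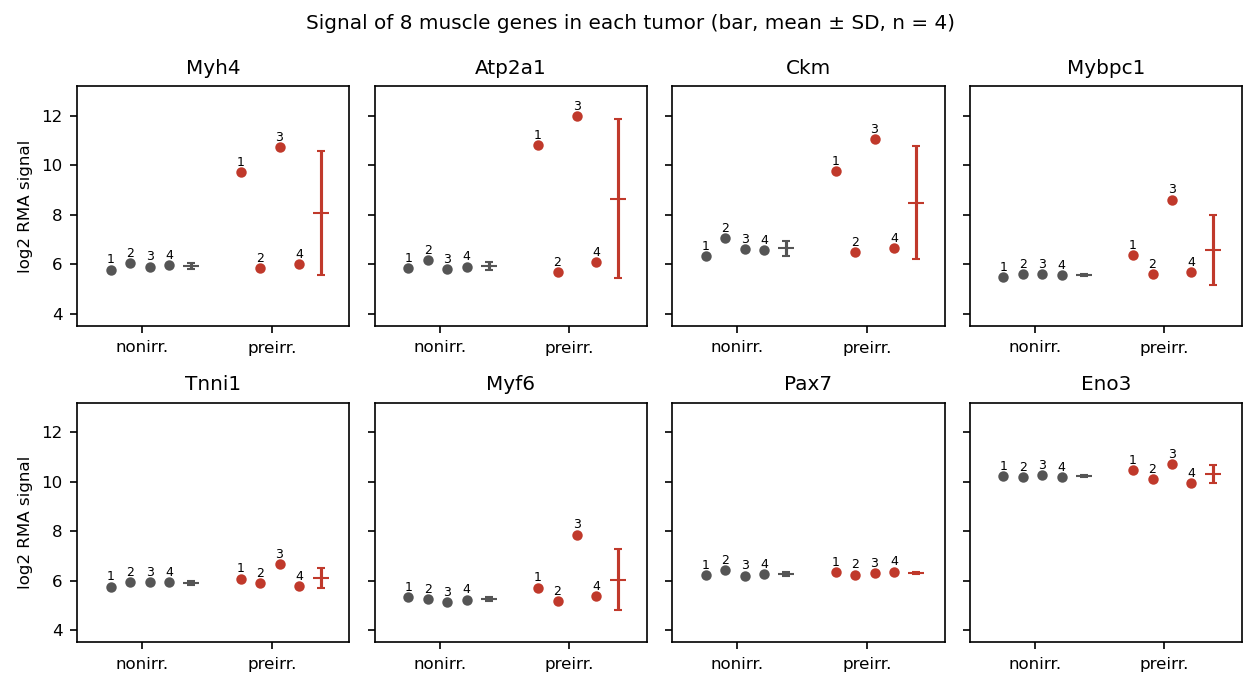
Log2 signal of 8 muscle genes in each tumor (numbered points; gray nonirradiated, red preirradiated) with the mean ± SD of each group of 4 at the side. Myh4, Atp2a1 and Ckm are high in preirradiated tumors 1 and 3, Mybpc1 and Myf6 mainly in tumor 3, Tnni1 less so, and Pax7 and Eno3 differ little between the groups.

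Genes of the sarcomere and cytoskeleton that both fiber types use had median elevations of 0.90 in preirradiated tumor 1 and 2.86 in tumor 3. All 14 lay above every nonirradiated tumor in tumor 1 (19.9% of all genes) and in tumor 3 (14.8%). Acta1, the skeletal actin of the thin filament, read 7.08, 7.57, 7.22 and 7.60 in nonirradiated tumors and 11.37, 7.08, 12.92 and 7.60 in preirradiated tumors. It was 16.0-fold above the nonirradiated mean in tumor 1 and 46.8-fold in tumor 3. Among the giant scaffold proteins, titin (Ttn) had elevations of 3.55 and 5.39, and nebulin (Neb) of 3.26 and 5.13. Desmin (Des), the intermediate filament that links Z-discs, had signals of 6.2 to 6.49 in nonirradiated tumors and 9.17 and 11.28 in preirradiated tumors 1 and 3. It is also made by smooth muscle and pericytes. Its readings of 6.15 and 6.19 in preirradiated tumors 2 and 4 lay just below the nonirradiated range. Several genes had an elevation above 2 in tumor 3 and below 1.0 in tumor 1. Xirp2, an actin-binding repeat protein of the attachment sites, had elevations of 0.93 and 3.27, Nrap, which helps to assemble myofibrils, of 0.85 and 2.76, and Actn2, the Z-disc actinin of all fibers, of 0.86 and 2.48. Others were above 1.0 in both: Myot, a Z-disc protein, had elevations of 1.67 and 3.80, and Klhl41, a stabilizer of nebulin, of 1.21 and 2.95. Smpx, a small muscle protein, had 0.77 and 2.07, and the Z-disc protein Ldb3 had 0.82 and 1.67. The smallest elevations of the group were those of Sgca, a sarcoglycan of the membrane complex (0.20 and 1.03), the titin cap Tcap (0.16 and 0.78) and the leiomodin Lmod2 (0.11 and 0.75).

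Excitation and calcium handling genes had median elevations of 1.06 and 2.57 in preirradiated tumors 1 and 3. All 9 lay above every nonirradiated tumor in tumor 1 (19.9% of all genes) and in tumor 3 (14.8%). Atp2a1, the calcium pump of the fast-fiber sarcoplasmic reticulum, had the largest elevation of the 50 genes in tumor 3. It read 5.84, 6.16, 5.8 and 5.9 in nonirradiated tumors and 10.81, 5.69, 11.99 and 6.08 in preirradiated tumors, 29.4-fold and 66.9-fold above the nonirradiated mean in tumors 1 and 3. The group means, 8.64 ± 3.22 and 5.93 ± 0.16 (SD, n = 4 each), differed by 2.72 (SE 1.38, limma adjusted p = 0.874). Casq1, which stores calcium in the reticulum, had elevations of 2.77 and 3.64, and the calcium buffer parvalbumin, Pvalb, of 2.15 and 3.04. Ryr1, the calcium release channel, had 2.29 and 4.27. The voltage sensor subunits Cacna1s and Cacng1 had elevations of 0.92 and 2.11 and of 0.46 and 1.22. Chrna1, the acetylcholine receptor subunit of the nerve-muscle junction, read 5.54 in tumor 1 and 6.86 in tumor 3 from 5.10 to 5.20 in nonirradiated tumors. Jph1, which holds the reticulum to the membrane, had elevations of 0.35 and 0.95. Triadin, Trdn, a partner of Ryr1, was covered by 19 probe sets. The one used here had elevations of 1.06 and 2.57, and across the 19 the elevation in tumor 3 ran from 0.07 to 5.55, with all 19 above every nonirradiated tumor in tumor 3 and 17 in tumor 1.

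Metabolic genes had median elevations of 0.93 and 1.83 in preirradiated tumors 1 and 3. All 7 lay above every nonirradiated tumor in tumor 1 (19.9% of all genes) and in tumor 3 (14.8%). Ckm, the muscle creatine kinase that buffers ATP, read 6.32, 7.04, 6.62 and 6.56 in nonirradiated tumors and 9.76, 6.47, 11.05 and 6.66 in preirradiated tumors. Its elevations were 3.13 in tumor 1 and 4.42 in tumor 3. Pygm, the glycogen phosphorylase of muscle, was 10.5-fold above the nonirradiated mean in tumor 1 and 24.3-fold in tumor 3. The glycolytic mutase Pgam2 and the AMP deaminase Ampd1 had elevations of 0.97 and 0.93 in tumor 1 and of 2.38 and 1.83 in tumor 3. Myoglobin, Mb, the oxygen store of oxidative fibers, read 6.22 and 6.90 from a nonirradiated range of 5.81 to 5.97. The mitochondrial creatine kinase Ckmt2, also typical of oxidative fibers, read 5.28 in tumor 1 and 5.50 in tumor 3 against 5.20 to 5.27. Preirradiated tumor 4, at 5.36, stood above tumor 1 for Ckmt2. Eno3, the muscle enolase, read 10.17 to 10.27 in nonirradiated tumors and 10.47, 10.10, 10.71 and 9.93 in preirradiated tumors.

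Satellite cell and myogenic factor genes had median elevations of 0.09 in preirradiated tumor 1 and 0.39 in tumor 3, and Myf6 stood apart from the other 3. Pax7, the satellite cell factor, read 6.21, 6.41, 6.2 and 6.26 in nonirradiated tumors and 6.33, 6.24, 6.31 and 6.36 in preirradiated tumors, and the groups overlapped fully. The mean difference was 0.04 (SE 0.055, limma adjusted p = 0.974). Myog, which drives the fusion of myoblasts, had elevations of -0.05 in tumor 1 and 0.27 in tumor 3, and Myod1, the factor of activated satellite cells, of 0.13 and 0.51. Myf6, the member of this family that mature fibers keep expressing, read 5.33, 5.26, 5.14 and 5.23 in nonirradiated tumors and 5.72, 5.17, 7.86 and 5.38 in preirradiated tumors. It stood 6.16-fold above the nonirradiated mean in tumor 3 and 1.40-fold in tumor 1. The 2 ubiquitin ligases of muscle atrophy were highest in tumor 3 as well. Trim63, which tags myosin for breakdown, read 7.50 in tumor 3, 6.04 in tumor 1 and 5.75 to 5.90 in nonirradiated tumors. Fbxo32 read 9.19 in tumor 3, 8.25 in tumor 1 and 7.73 to 7.96 in nonirradiated tumors, and 7.37 in preirradiated tumor 4 was its lowest signal.

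Genes of muscle regeneration outside the 50 formed a separate list. Of 14 measured embryonic or regenerating muscle genes, 1 was at least 1.0 above every nonirradiated tumor in preirradiated tumor 3 (0.482% of all genes). In tumor 1 it was 0 (0.246%), and the median elevations in tumors 3 and 1 were 0.17 and 0.09. By any margin, 10 of 14 lay above every nonirradiated tumor in tumor 3 (14.8% of all genes) and 8 in tumor 1 (19.9%). That gene, Myl4, an embryonic and atrial light chain, read 8.27 in tumor 3 and 6.16 to 6.42 in nonirradiated tumors. The perinatal myosin Myh8 read 5.61 in tumor 3 and 5.08 to 5.31 in nonirradiated tumors. Tnnt2, the cardiac and embryonic troponin T, showed another order: it was highest in preirradiated tumor 2, at 10.66, and lowest of the preirradiated group in tumor 3, at 10.03, with nonirradiated signals of 9.52 to 9.71. It was the 1 gene of this list past the study's filter, with a difference of 0.68 (SE 0.12, limma unadjusted p = 0.000466, adjusted p = 0.595). Genes made by heart muscle alone had median elevations of 0.02 in tumor 1 and 0.07 in tumor 3 over 6 genes. In tumors 1 and 3, 0 of them were at least 1.0 above every nonirradiated tumor (0.246% and 0.482% of all genes).

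A separate list, also written with earlier results of these data known, held other adult muscle genes. Of 24 measured, 23 lay above every nonirradiated tumor in preirradiated tumor 3 (14.8% of all genes) and 19 in tumor 1 (19.9%). The median elevations were 1.08 and 0.35. The same list had 1 gene above every nonirradiated tumor in tumor 2 (19.4% of all genes) and 4 in tumor 4 (26.7%). Pdlim3, a partner of the Z-disc actinin, read 5.44 to 5.71 in nonirradiated tumors and 7.72 and 10.22 in preirradiated tumors 1 and 3. Cox8b, a cytochrome oxidase subunit of muscle and brown fat, reached 7.67 and 8.77 from 5.34 to 5.48. Tmod4, which caps thin filaments, was the 1 gene of this list past the study's filter, with a difference of 1.00 (SE 0.43, limma unadjusted p = 0.0463, adjusted p = 0.851). It missed the filter when any 1 nonirradiated tumor or preirradiated tumor 1 was left out, and after centring or a further quantile normalization. Its signal of 6.0 in preirradiated tumor 2 also lay above all nonirradiated tumors. Of genes in no list, the patterns nearest to the median of the 50, by root mean square distance over the 8 tumors, were Cmya5 (0.05), Cap2 (0.06), Hjv (0.13) and Apobec2 (0.20). Cmya5, a desmin-binding muscle protein, read 6.41 and 8.09 in preirradiated tumors 1 and 3 and 5.33 to 5.52 in nonirradiated tumors.

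**Figure D3:**
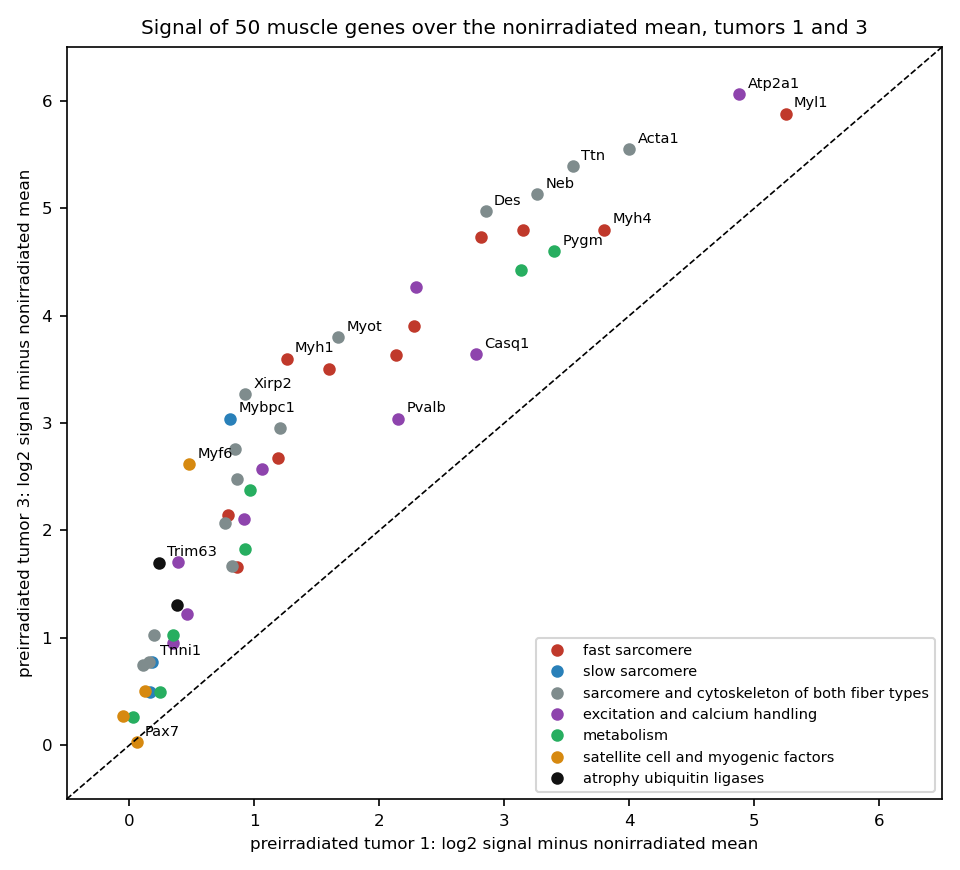
Elevation of each of the 50 muscle genes in preirradiated tumor 1 (x axis) and tumor 3 (y axis), log2 signal minus the nonirradiated mean, colored by role; the dashed line marks equal elevation. All points but Pax7 lie above the line, and Myl1, Casq1, Pvalb and Myh4 lie nearer to it than Myh1, Xirp2, Mybpc1 and Myf6.

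The muscle genes did not keep a single ratio between the 2 tumors that carried them. Tumors 1 and 3 are 1 array each, so these ratios have no replicate check and no test. For the 22 genes with an elevation of at least 1.0 in both tumors, the excess signal was taken on the linear scale, as the tumor's signal minus the nonirradiated level. The ratio of the excess in tumor 3 to that in tumor 1 had a median of 3.72. It was 1.56 for Myl1, 1.96 for Casq1, 2.08 for Myh4, 2.11 for Pvalb and 2.32 for Atp2a1. It was 4.70 for Ryr1, 4.87 for Des, 5.95 for Myot and 7.97 for Myh1. Using each nonirradiated tumor alone as the reference moved the Myh4 ratio between 2.07 and 2.09 and the Myh1 ratio between 7.70 and 8.16. The widest such range was that of Tnni2, from 3.80 to 5.18. The medians were 2.32 for 5 excitation and calcium genes, 3.60 for 9 fast sarcomere genes and 4.42 for 6 genes of both fiber types. The other 28 genes had an elevation below 1.0 in tumor 1 and were left out. This cut removes genes with little signal in the tumor that forms the denominator. The range and median of the ratio thus hold only for the 22 genes, and the role medians do not compare whole roles. Robust averaging can compress signals near background, and Myh1 was at 6.41 in tumor 1. Whether this moved any of the ratios was not tested.

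**Figure D4:**
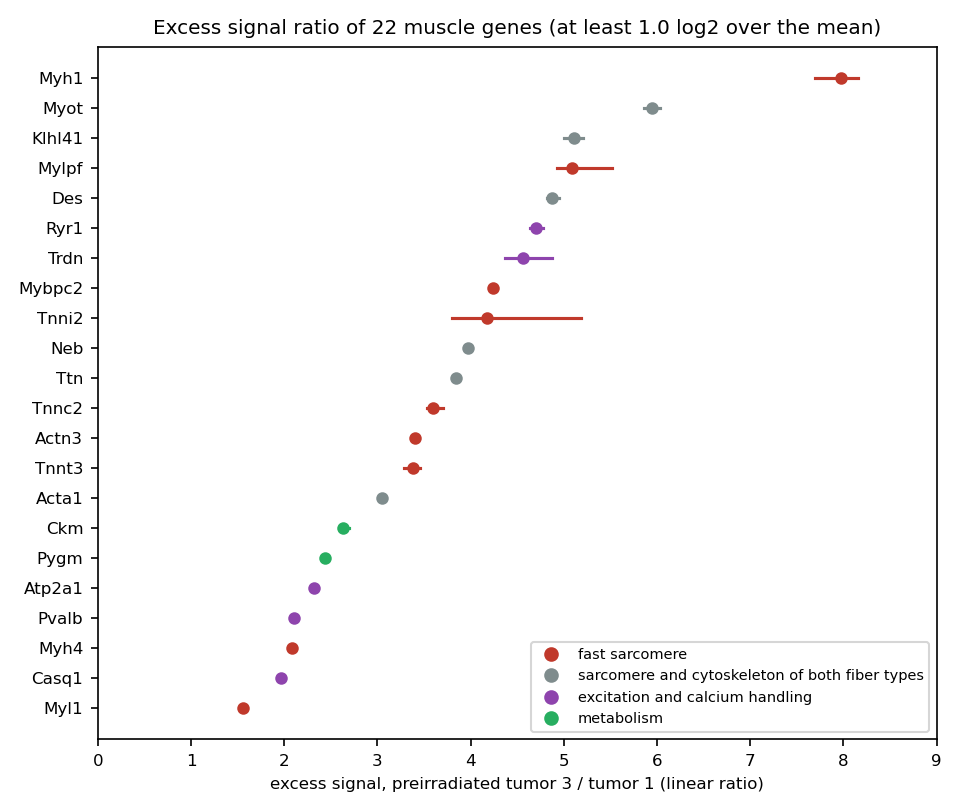
Ratio of excess signal (linear signal minus the nonirradiated level) in preirradiated tumor 3 to that in tumor 1 for 22 muscle genes, colored by role; lines span the values with each nonirradiated tumor alone as reference. Among these 22 genes the ratio runs from 1.56 (Myl1) to 7.97 (Myh1) with a median of 3.72. The other 28 genes, with an elevation below 1.0 in tumor 1, have no ratio.

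Markers of other tissues differed between the same tumors. The 11 adipocyte genes had a median elevation of 1.35 in preirradiated tumor 1 and of 0.11 in tumor 3. All 11 lay above every nonirradiated tumor in tumor 1 (19.9% of all genes) and 3 of 11 in tumor 3 (14.8%). The mean elevation over these 11 genes ran from -0.17 to 0.31 in nonirradiated tumors and from 0.01 to 1.6 in preirradiated tumors. Adipoq, the fat hormone adiponectin, read 7.30 in preirradiated tumor 1 and 5.16 in tumor 3. Car3, a carbonic anhydrase of both fat and muscle, was high in both, at 11.56 and 11.21 against 6.56 to 8.41 in nonirradiated tumors. The 9 skin epidermis genes had a median elevation of 0.85 in preirradiated tumor 3 and -0.11 in tumor 1. In tumor 3, 7 of 9 lay above every nonirradiated tumor (14.8% of all genes). Nonirradiated tumor 4 also had high skin genes, with a median elevation of 0.53 and Krt10 at 7.29. The muscle genes of nonirradiated tumor 4 had a median elevation of -0.001. Krt14 showed another order: it was highest in preirradiated tumor 2, at 8.35, with 7.72 in preirradiated tumor 3 and 7.56 in nonirradiated tumor 4. It was the 1 gene of the skin list past the study's filter, with a difference of 0.87 (SE 0.29, limma unadjusted p = 0.0155, adjusted p = 0.79). In preirradiated tumor 2 its elevation was 1.48, while the median of the skin list was -0.21. List means of the skin genes ran from -0.28 to 0.58 in nonirradiated and from -0.11 to 0.70 in preirradiated tumors. Thbs4, a matrix protein of tendon and muscle attachments, read 7.60 in tumor 3 and 6.22 in tumor 1, and its list of 7 tendon and fascia genes had a median elevation of 0.16 in tumor 3. Smooth muscle genes had median elevations of 0.26, 0.14, 0.15 and 0.16 in preirradiated tumors 1 to 4. For the genes of the tumor epithelium the median was 0.53 in preirradiated tumor 2 and 0.13 and 0.04 in tumors 1 and 3. The part of fat, skin or other tissue in the muscle gene values was not tested.

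**Figure D5:**
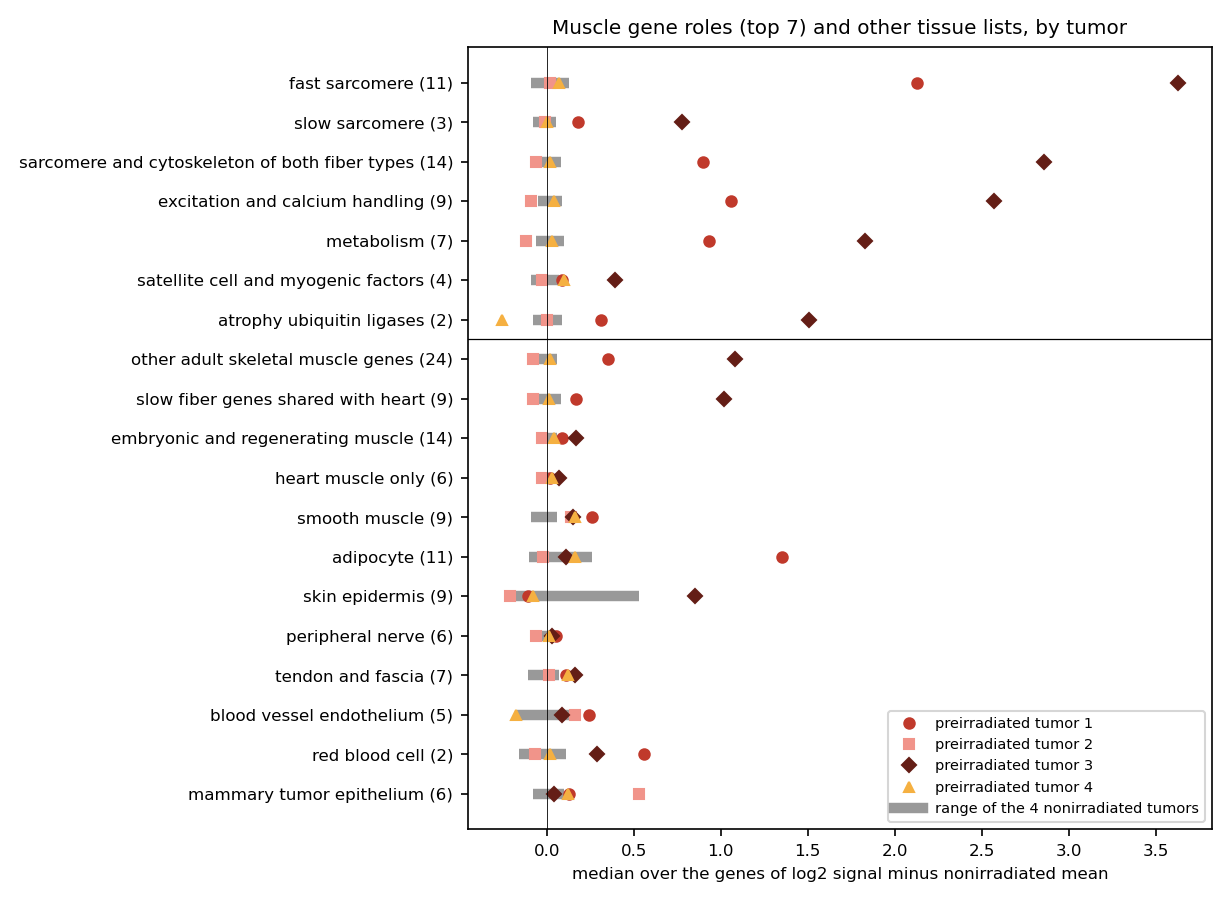
Median elevation (log2 signal minus the nonirradiated mean) of the 7 muscle gene roles and 12 other tissue lists, with the number of measured genes in brackets, for each preirradiated tumor (symbols) and the range of the 4 nonirradiated tumors (gray bars). All 7 muscle roles lie above the nonirradiated range in tumor 3, the satellite cell and myogenic factors lie close to it in tumor 1 (0.09), and adipocyte genes stand out in tumor 1 (1.35) and skin genes in tumor 3 (0.85).

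Of the 49 genes at least 1.0 above every nonirradiated tumor in preirradiated tumor 1, 20 were among the 50 muscle genes, 2 were in the other muscle lists, 6 were adipocyte genes and 21 were in no list. Of the 96 such genes in tumor 3, 38 were among the 50, 16 were in the other muscle lists, 1 was an adipocyte gene, 2 were in the remaining lists and 39 were in no list. The tumors shared 31 genes, 63.3% of the first set and 32.3% of the second. Within the nonirradiated group the median SD of the muscle genes was 0.087, against 0.075 over all genes. Nonirradiated tumor 2 was the highest of the 4 in 33 of 50 genes (33.7% of all genes), with a median elevation of 0.083. Its adipocyte list also had the highest median of the group, 0.26.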

How the data were processed

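The authors deposited one log2 value per probe set and tumor, obtained by robust multi-array averaging (RMA, a method of background correction, quantile normalization and probe summary), per the design text of the series. It names the affy package of Bioconductor 2.4, and R 2.15.3 stands in the submitters' processing notes. No source used here names a chip description file. Quantile normalization hides a change in total RNA per tumor. The table held 34760 probe sets, of which 34738 had a mean of at least 4.0. By the platform annotation 21640 listed 1 gene symbol, 1321 several and 11799 none.

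Preirradiated and nonirradiated tumors, grouped by title, were compared in 1 fit of all 8 arrays by limma (version 3.58.1, R 4.3.3; lmFit, then eBayes; two-sided p-values, adjusted by Benjamini-Hochberg over the tested probe sets). The pipeline was tested on simulated data. Named genes were the 50 members, up to 4 genes per other list with the largest range over the tumors, and the genes of no list nearest in pattern. The members, lists and alternatives were chosen with earlier results of these data known. Lists are described by counts and medians, beside all genes, without a set test. Promoter windows came from RefSeq tables. Alternatives covered normalization, variance model, array weights, expression limit, probe set choice and leaving out tumors.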

Additional observations from a re-analysis of the deposited data

Results flagged for a closer look

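Of 100 groups of 4 tumors examined (50 genes in each group), 3 held a tumor whose gap to its nearest neighbor was above Dixon's critical share of the group's whole range. Chance alone marks about 1 in 20 such groups. Trim63 stood at 7.50 in preirradiated tumor 3, apart from the other preirradiated tumors. Tnni1 stood at 5.76 and Myog at 5.50 in nonirradiated tumor 1, both lower than the other nonirradiated tumors.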

How the results depend on the processing

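Under another reference, centring, a further quantile normalization, averaging of probe sets or 1 nonirradiated tumor left out, the median elevation of the 50 genes ran from 0.89 to 0.93 in preirradiated tumor 1, from -0.07 to -0.02 in tumor 2, from 2.55 to 2.63 in tumor 3 and from 0.0 to 0.07 in tumor 4. The number of genes past the study's filter, 0, was 1 (Tnni2) with an intensity trend in the variance model, with an expression limit of 6 or with the mean of the probe sets per gene, and 25 with array weights. Over all genes the filter was passed, in either direction, by 97 of 19937 as reported, and by 102 of 19937, 98 of 11456 and 100 of 19937 under the first 3 of these settings and 174 with array weights. An expression limit of 6 left 33 genes, all 33 higher. Leaving out 1 tumor at a time gave from 0 to 25 genes past the filter, from 46 to 50 genes higher, and a median difference from 0.31 to 1.16. With 1 tumor left out at a time, the difference ran from -0.05 to 0.21 for Eno3, from -0.03 to 0.57 for Fbxo32, from -0.02 to 0.29 for Lmod2 and from -0.01 to 0.32 for Tcap, each lowest without preirradiated tumor 3. Without preirradiated tumors 1 and 3 together 20 genes were higher, the median difference was -0.02, and 30 differences turned negative: -0.24 for Fbxo32, -0.2 for Eno3, -0.14 for Des, -0.11 for Trdn, -0.1 for Tcap and Xirp2, -0.09 for Lmod2 and Pygm, -0.07 for Ldb3, Smpx, Pvalb and Ckm, -0.06 for Tnni1, -0.05 for Mylpf, Myot and Chrna1, -0.04 for Tnnt1, Atp2a1 and Pgam2, -0.03 for Myl1, Myoz1, Sgca, Ryr1 and Trim63, -0.02 for Acta1, -0.01 for Myh4 and Myod1, -0.005 for Cacng1, -0.003 for Myh2, and -0.0006 for Ckmt2. Tmod4 missed the filter after centring or a further quantile normalization (0.97 and 0.98) and without any 1 nonirradiated tumor, without preirradiated tumor 1 (1.02), and without tumors 1 and 3 together (0.33). No pairing of the tumors by the replicate numbers of the titles was seen. Deviations from the group means correlated at -0.08, -0.29, -0.09 and -0.18 for numbers 1 to 4. With 1 tumor per number and group, these values cannot exclude a pairing. A fit with the replicate block left 0 genes past the filter, 50 higher and a median difference of 0.85. Differences of genes near background may be understated by the log2 RMA scale, which was not tested here.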

Other observations

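Of genes in no list, 21 were at least 1.0 above every nonirradiated tumor in preirradiated tumor 1. Named after their values were seen, these include Lpl, Scd1, Dgat2 and Gpd1, enzymes of fat storage and synthesis, beside the muscle genes Tpm2 and Apobec2. In preirradiated tumor 3 the 39 such genes include Tpm2, the glycolytic enzyme Pfkm and the muscle chaperone Cryab. Fhl1, a muscle LIM-domain protein, read 7.71, 7.14, 9.79 and 6.60 in preirradiated tumors 1 to 4 and 6.22 to 6.73 in nonirradiated tumors, so tumor 2 was above the nonirradiated range as well. Mustn1, a gene of growing muscle and bone, read 9.56, 8.67, 11.72 and 8.56 in preirradiated tumors and 8.76 to 9.10 in nonirradiated tumors. Of the 14 embryonic or regenerating muscle genes, Ncam1 read 6.92, 6.75, 7.12 and 6.29 in preirradiated tumors and 6.33 to 6.44 in nonirradiated tumors.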
